A study of Mus musculus with 4 samples.

Results

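The genes described here are 6 LIM homeodomain transcription factors, Lhx1, Lhx2, Lhx5, Lhx9, Lmx1a and Lmx1b, and their 2 adaptor proteins, Ldb1 and Ldb2. They were chosen by name as a gene family, and all 8 were found among the 32285 genes counted. Cerebella were dissected from mice at E14.5, the tdTomato-positive cells were collected by FACS and these were profiled with 10x Genomics 3′ chemistry, which tags the 3′ end of each RNA molecule and counts molecules by unique molecular identifiers (UMIs). The 2 control libraries carried Atoh1-Cre/+ and the Cre-dependent tdTomato reporter R26LSL-tdT/+. The 2 conditional knockout libraries (En1/2 CKO) carried both of these and, in addition, En1lox/lox and En2lox/lox. Each library was made from pooled animals. Atoh1-Cre acts in the Atoh1 lineage of the rhombic lip, which gives rise to granule cells, unipolar brush cells and the excitatory neurons of the cerebellar nuclei. En1 and En2 encode the Engrailed homeodomain factors.

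LIM homeodomain proteins join a DNA-binding homeodomain to a pair of LIM domains that bind other proteins. Ldb proteins form dimers and hold LIM factors together in complexes. LIM-only proteins (Lmo) carry LIM domains without a homeodomain and compete for the same Ldb surface, SSBP proteins protect Ldb from degradation, and the ubiquitin ligase Rlim marks it for degradation. In the developing cerebellum Lhx2 and Lhx9 are known from young excitatory nuclei neurons, Lmx1a from the rhombic lip and unipolar brush cells, and Lhx1 and Lhx5 from GABAergic cells, Purkinje cells above all.

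Cells were read in 3 classes by UMIs of a few genes: cells with more Meis2 than Pax6 UMIs, a pattern of the nuclei lineage, cells with more Pax6 than Meis2 UMIs, a pattern of the granule lineage, and cells with any Gad1 or Gad2 UMI, which encode the enzymes of GABA synthesis. In the order control replicates 1 and 2 and CKO replicates 1 and 2, used for every run of 4 values below, the first class held 603, 2322, 573 and 372 cells, the second 1801, 961, 1208 and 2978, and the third 58, 87, 50 and 50. A Gad cell could also belong to one of the other classes. The groups differed in depth and cell quality: median UMIs per cell were 2617, 2171.5, 3110 and 2248 in Meis2 > Pax6 cells and 3238, 2339, 13722.5 and 9818.5 in Pax6 > Meis2 cells. Whether a preparation batch separates the groups cannot be told apart from genotype. En2 RNA checked the labels: it was called lower in CKO in the Meis2 > Pax6 cells (log2 fold change -2.24, adjusted p = 0.0177 by edgeR) and the Pax6 > Meis2 cells (-2.51, adjusted p = 0.0115), but not in the Gad cells (-1.56, adjusted p = 0.0515). En1 RNA overlapped between the groups in both classes; whether its 3′ tags lie inside the deleted part is not given in the sources used here.

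Lhx2 and Lhx9 are the members that the Meis2 > Pax6 cells carried most. The stretches before a RefSeq start of each gene are shown because both genes were found in the same cells while the 2 stretches differ in composition. Both are on GRCm38.p6 and read 5′ to 3′ on the gene's strand, and capitals mark a CCAAT box on either strand (CCAAT or ATTGG). The Lhx2 stretch is chr2:38339031-38339280 on the + strand and ends at the base before the annotated gene. The Lhx9 stretch is chr1:138842458-138842694 on the - strand. It lies inside the longest annotated form of Lhx9 but outside every exon, and the 13 bases nearest the start were left out because an exon covers them.
Lhx2: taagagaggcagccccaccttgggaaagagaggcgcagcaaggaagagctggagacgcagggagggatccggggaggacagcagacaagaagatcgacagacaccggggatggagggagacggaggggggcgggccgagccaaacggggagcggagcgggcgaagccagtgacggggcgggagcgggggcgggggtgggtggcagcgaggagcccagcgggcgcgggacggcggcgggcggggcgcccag
Lhx9: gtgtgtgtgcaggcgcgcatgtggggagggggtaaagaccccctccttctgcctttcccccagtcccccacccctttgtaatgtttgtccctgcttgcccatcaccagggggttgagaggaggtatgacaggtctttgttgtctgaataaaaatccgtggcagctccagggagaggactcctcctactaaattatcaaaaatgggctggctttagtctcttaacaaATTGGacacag
The Lhx2 stretch had a GC content of 72.8% over 250 bases and no CCAAT box, and the Lhx9 stretch had 52.3% over 237 bases and 1 CCAAT box. The homeodomain core TAATTA, the E-boxes CAGCTG and CAGATG and the TATA box TATAAA, searched on both strands, were in neither. Among 32817 RefSeq promoter windows of 250 bases, 4.85% held TAATTA, 13.01% CAGCTG, 14.46% CAGATG, 12.4% TATAAA and 33.8% CCAAT. A match or its absence describes these letters in this window only.

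In Meis2 > Pax6 cells, the LIM homeodomain RNA was mostly Lhx9 and Lhx2. Lhx9 made up 50.9%, 63.7%, 59.6% and 48.1% of the UMIs of the 6 LIM homeodomain genes, and Lhx2 32.4%, 24.4%, 35.7% and 39.3%. Lhx1 followed with 13.3%, 6.14%, 2.39% and 9.39%, and Lmx1a with 2.91%, 5.08%, 2.17% and 2.71%. Lhx5 and Lmx1b together stayed at the edge of detection: Lhx5 gave 6, 32, 6 and 5 UMIs, and Lmx1b 0, 0, 0 and 1. In these 3′ counts a molecule gives 1 tag whatever its length, so levels of different genes are compared as CPM, UMI counts scaled to a common library total, without a length term.

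**Figure D1:**
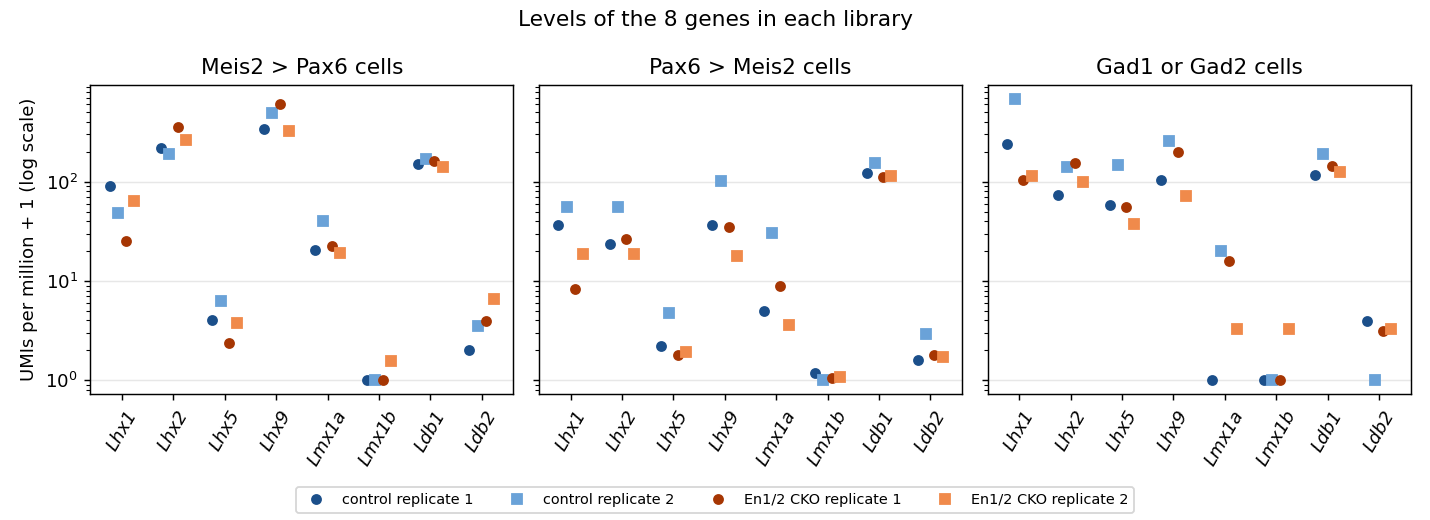
CPM plus 1 (vertical log axis) of each of the 8 genes in each class of cells, 1 point for each library, circles for replicate 1 and squares for replicate 2. Lhx9 and Lhx2 lead in Meis2 > Pax6 cells, Lhx1 leads in control Gad cells, and Ldb1 stands near the same level in every class and library.

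The question asked of each class was whether the CKO libraries differed from the controls. UMIs were summed per library, scaled by TMM to CPM, and tested with edgeR's quasi-likelihood test; a gene is called where its Benjamini-Hochberg adjusted p over all genes is under 0.05. In Meis2 > Pax6 cells 25 of 11804 genes (0.212%) passed, with 16 up in CKO (0.136%) and 9 down (0.0762%), and 0 of the 5 members that passed the low-count filter were among them. At an unadjusted p under 0.05 stood 1732 genes (14.7%) and 1 of those members, Lhx2. DESeq2 called 0 of the 4 members to which it gave an adjusted p (Lhx1, Lhx2, Lhx9 and Ldb1) and gave none for Lmx1a. In bulk sums, fewer cells with a gene and less RNA per cell cannot be told apart. The replicates are pooled samples, and no label says that they came from separate litters, so the p-values measure the spread between these libraries.

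Lhx2, a factor of early neuronal fate in several brain regions, stood at 206 and 194 CPM in control replicates 1 and 2 and at 371 and 260 CPM in CKO replicates 1 and 2. Both CKO libraries lay above both controls, as did 22% of all genes tested. The difference did not pass (log2 fold change 0.67 ± 0.24 SE, n = 2 per group, adjusted p = 0.244 by edgeR). Lhx9, the close relative of Lhx2, stood at 323, 506, 620 and 319 CPM. Its groups overlapped, and each group held 1 high and 1 low library (log2 fold change 0.18 ± 0.33 SE, adjusted p = 0.849).

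Lhx1 stood at 84.5, 48.7, 24.9 and 62.3 CPM in the same cells, and Lmx1a at 18.5, 40.4, 22.6 and 17.95 CPM. Neither separated the groups: the log2 fold changes were -0.65 ± 0.39 (SE, adjusted p = 0.493) for Lhx1 and -0.58 ± 0.35 (SE, adjusted p = 0.490) for Lmx1a. Without CKO replicate 2 Lhx1 and Lhx2 passed the threshold that they missed with it: Lhx1 stood at a log2 fold change of -1.36 (adjusted p = 0.0259) and Lhx2 at 0.91 (adjusted p = 0.0313). In that fit 751 of 12826 genes were called, and the single CKO library is assumed to vary as the controls do. Ldb1, the main Ldb adaptor, stood at 141, 173, 166 and 141 CPM and overlapped between the groups (log2 fold change -0.03 ± 0.22 SE, adjusted p = 0.958). Lhx5, Lmx1b and Ldb2 did not pass the filter, and Ldb2 gave 2, 15, 13 and 10 UMIs.

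The make-up of the class by cluster moved with genotype and stands beside these values. Clusters were built without the 8 genes and are given by number and leading genes. Cluster 10 (leading genes Evx1os, Rflna and Lmcd1), where Lhx2 was highest over all libraries summed, held 11.4%, 7.7%, 34.7% and 22.3% of the Meis2 > Pax6 cells, and cluster 5 (Zfhx3, Cntnap5a and C1ql3), where Lhx9 was highest over all libraries summed, held 31.2%, 23.7%, 8.7% and 3.8%. These ranks, over all cells of a cluster, do not hold in each library. Lhx9 was higher in cluster 9 than in cluster 5 in both CKO libraries (755 and 657 against 620 and 499 unscaled CPM). In control replicate 1 Lhx2 was at 205 CPM in cluster 10 and 296 CPM in cluster 5. The genes that define a cluster can themselves differ between genotypes, so these shares are not a test of cell numbers. Summed granule-lineage markers in the class, all 10 of them detected, were also higher in CKO, at 2327, 2154, 3122 and 3496 CPM. Within that list Cntn2 stood at 633, 827, 1101 and 1255 CPM, above its levels in Pax6 > Meis2 cells (216, 415, 261 and 246 CPM). Neurod1 went the other way (164, 185, 109 and 142 CPM) and Tlx3 overlapped. The other markers of the list lay higher in both CKO libraries. Among them, Atoh1 stood at 90.4, 42.8, 201 and 118 CPM (adjusted p = 0.157 by edgeR). Dividing-cell markers (369, 244, 773 and 511 CPM) and radial glia markers (518, 385, 856 and 762 CPM) lay higher in both CKO libraries and unipolar brush cell markers lower (92.1, 138, 61.8 and 45.5 CPM). The part of these in the members' values was not tested. With clusters 4, 5, 6, 9 and 10 weighted alike in every library, Lhx2 stood at 214, 213, 278 and 236 CPM, a log2 ratio of 0.27, against 0.67 unweighted. In CKO replicate 2 cluster 5, with only 14 cells of the class, has the same weight there as each other cluster. Weighted alike, Lhx1 stood at 109, 35.9, 10.8 and 34.6 CPM, a log2 ratio of -1.67, and Lmx1a changed sign to 0.09.

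Within single clusters none of the members was called. These fits took all cells of a cluster, whatever their class. Meis2 > Pax6 cells made up 75.6% of cluster 10, 88.5% of cluster 5, 89.7% of cluster 9 and 72.0% of cluster 4. In cluster 6 they made up 52.6%, and Pax6 > Meis2 cells 32.2%. In cluster 10 Lhx2 stood at 200, 376, 468 and 335 CPM and Lhx9 at 187, 529, 725 and 240 CPM, both with overlapping groups (16 of 9157 genes called, 0.175%). In cluster 5 Lhx9 stood at 608, 923, 640 and 489 CPM and Lhx2 at 316, 234, 281 and 93.1 CPM, also overlapping (0.112% of genes called). The values of CKO replicate 2 there come from 19 cells and rest on 21 Lhx9 and 4 Lhx2 UMIs. In cluster 9 (Snhg11, Chl1 and Sulf2) Lhx2 stood at 193, 204, 174 and 189 CPM, with both CKO libraries just below both controls (log2 fold change -0.13 ± 0.26 SE, adjusted p = 0.966 by edgeR; 0.332% of genes called).

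Cluster 6 (Calb2, Nefm, Lmx1a and Tbr1) was where Lmx1a was highest, and there Lhx2 and Lhx9 stood on opposite sides. Lhx2 was at 90.4 and 107 CPM in the controls and 197 and 149 CPM in the CKO libraries, both above both controls (log2 fold change 0.79 ± 0.26 SE, adjusted p = 0.689 by edgeR). Lhx9 was at 105 and 154 CPM in the controls and 58.6 and 40.04 CPM in the CKO libraries, both below both controls (log2 fold change -1.42 ± 0.30 SE, adjusted p = 0.117). Neither passed, among 7 of 7573 genes called (0.0924%). The share of all genes whose groups did not overlap was not counted within single clusters. In the whole class of Meis2 > Pax6 cells it was 44.5% of genes tested. Lmx1a itself overlapped, at 116, 124, 166 and 95.6 CPM (log2 fold change 0.13 ± 0.28 SE, adjusted p = 0.997). In cluster 4 (Robo3, Plxna2 and Olig2) Lhx1 stood at 175, 46.6, 14.6 and 24.7 CPM and both CKO libraries were the lowest (log2 fold change -2.33 ± 0.65 SE, adjusted p = 0.274; 0.193% of genes called). The CKO values there rest on 4 and 5 UMIs.

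**Figure D2:**
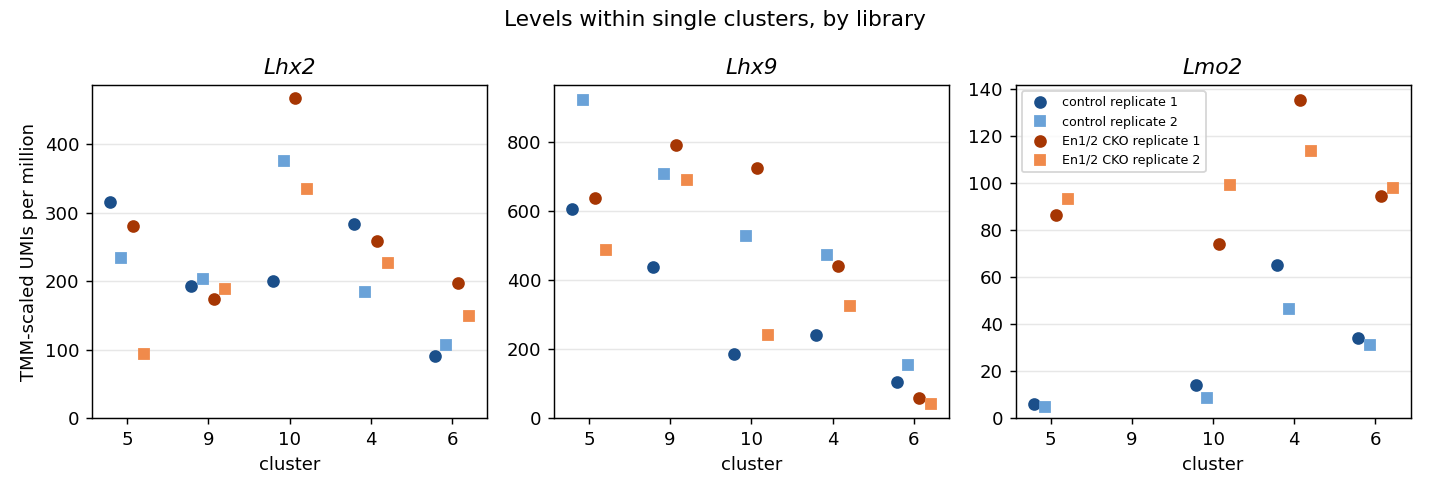
TMM-scaled CPM (vertical axis, from 0) of Lhx2, Lhx9 and the LIM-only gene Lmo2 in clusters 5, 9, 10, 4 and 6 (horizontal axis). Each point is 1 library, with all cells of the cluster summed. Lhx2 and Lhx9 overlap between the groups in clusters 5, 10 and 4, and Lmo2 lies higher in both CKO libraries in the 4 clusters shown; in cluster 9 it was under the filter on low counts.

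Of the 18 other genes of the pathway, 11 passed the filter in this class and 1 was called, where 0.212% of all genes were. Lmo2, a LIM-only protein that binds Ldb1 and links it to bHLH factors, was called higher in CKO Meis2 > Pax6 cells: 18.5 and 24.7 CPM in the controls against 67.2 and 66.2 CPM in the CKO libraries (log2 fold change 1.59 ± 0.23 SE, adjusted p = 0.0332 by edgeR). It was the 1 called gene of 4 LIM-only genes, whose median log2 fold change was 0.51 against -0.01 over all genes tested. The call did not hold with each cell thinned to 2000 UMIs (log2 fold change 1.03, adjusted p = 0.401), in intact cells (0.98, adjusted p = 0.243) or without cells that had an Atoh1 UMI (1.87, adjusted p = 0.0654). Red cells and vessels also make Lmo2; the erythroid list, 7 of 7 markers detected, summed to 53.4, 3516, 20.6 and 4.495 CPM in these cells, and 5 vascular markers, 4 of them detected, to 2.03, 5.29, 3.17 and 2.81 CPM. Their part in the Lmo2 result was not tested.

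Taken over all cells of a cluster, Lmo2 was higher in both CKO libraries in every one of the 5 clusters. It was called in 2 of the 4 where it passed the filter. In cluster 5 it gave 4, 6, 12 and 4 UMIs, or 5.88, 4.74, 86.3 and 93.1 CPM (log2 fold change 4.03 ± 0.62 SE, adjusted p = 0.005 by edgeR). In cluster 10 it gave 9, 5, 199 and 133 UMIs, or 13.9, 8.70, 74.0 and 99.3 CPM (log2 fold change 2.90 ± 0.36 SE, adjusted p = 0.006). In clusters 4 and 6 the log2 fold changes were 1.24 (adjusted p = 0.184) and 1.58 (adjusted p = 0.065), and in cluster 9 it gave 3, 11, 14 and 6 UMIs, or 8.0, 12.2, 36.3 and 19.2 unscaled CPM. In Meis2 > Pax6 cells alone, with these clusters weighted alike, Lmo2 stood at 23.5, 19.7, 89.5 and 69.7 CPM, a log2 ratio of 1.88.

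The other LIM-only genes did not pass in the class. Lmo1, a neural LIM-only gene, stood at 17.0, 15.7, 47.7 and 30.3 CPM (log2 fold change 1.30 ± 0.28 SE, adjusted p = 0.103), but with the clusters weighted alike its log2 ratio was -0.23. Lmo3 lay lower in both CKO libraries, at 47.1, 81.1, 30.1 and 24.1 CPM (log2 fold change -1.25 ± 0.28 SE, adjusted p = 0.112), and with the clusters weighted alike its log2 ratio was -0.59. Lmo4 overlapped, at 74.8, 94.1, 64.6 and 76.3 CPM (log2 fold change -0.28, adjusted p = 0.597).

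None of the 3 SSBP genes was called, and their median log2 fold change was 0.03. Ssbp2 lay lower in both CKO libraries, at 174, 183, 128 and 101 CPM (log2 fold change -0.64 ± 0.21 SE, adjusted p = 0.222), while Ssbp3 (369 to 425 CPM over the 4 libraries) and Ssbp4 (92.0 to 167 CPM) overlapped. Rlim lay lower in both CKO libraries, at 93.8, 102, 68.4 and 88.1 CPM (log2 fold change -0.34, adjusted p = 0.507). Of the bHLH partners, Tcf3, Tcf4 and Tcf12 were tested and none was called; Tcf3 lay higher in both CKO libraries, at 88.4, 80.1, 127 and 95.4 CPM (log2 fold change 0.41 ± 0.22 SE, adjusted p = 0.417), as it did in the other classes, and Tcf4, with 1028 to 1610 CPM, overlapped between the groups. Of 6 other LIM homeodomain genes (Lhx3, Lhx4, Lhx6, Lhx8, Isl1 and Isl2) 0 passed the filter, and Lhx3 and Lhx6 had no UMI in this class.

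In Pax6 > Meis2 cells 8 of 13931 genes (0.0574%) passed, with 3 up (0.0215%) and 5 down (0.0359%), and 0 of the 7 members tested were among them. An unadjusted p under 0.05 was reached by 1368 genes (9.82%) and, of the members, by Lhx1 and Lhx9. Lhx1 was lower in both CKO libraries, at 34.3 and 51.8 CPM in the controls and 7.74 and 18.2 CPM in CKO (log2 fold change -1.69 ± 0.37 SE, adjusted p = 0.179 by edgeR). Groups did not overlap for 46.5% of all genes tested here, with both CKO libraries below for 23.5% and above for 22.9%. Lhx1 passed with DESeq2 (adjusted p = 0.00505), with each cell thinned to 2000 UMIs (log2 fold change -1.82, adjusted p = 0.0392), without the low-count filter (adjusted p = 2.31e-08) without CKO replicate 2 (log2 fold change -2.45, adjusted p = 0.000289) and with a block that crosses the replicate numbers, added after the data were seen (adjusted p = 0.000955). It did not pass with the replicate block (-1.82, adjusted p = 0.408; edgeR then called 0 genes), in intact cells (-1.71, adjusted p = 0.527), without doublets (-1.71, adjusted p = 0.131), without Gad cells (-1.46, adjusted p = 0.239), without Atoh1 cells (-1.46, adjusted p = 0.226) or without any of the other 3 libraries (adjusted p from 0.0916 to 0.501).

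Lhx5, at 1.15, 3.63, 0.846 and 0.954 CPM, was also lower in both CKO libraries (log2 fold change -1.15 ± 0.62 SE, adjusted p = 0.534). For Lhx9, Lhx2 and Lmx1a control replicate 2 stood apart. Lhx9 stood at 34.0, 96.9, 35.9 and 17.4 CPM, Lhx2 at 21.6, 52.1, 26.9 and 18.4 CPM and Lmx1a at 3.77, 28.2, 8.46 and 2.65 CPM. Control replicate 2 was the highest library for each, and the other 3 libraries overlapped. Log2 fold changes were -1.27 (adjusted p = 0.4402) for Lhx9, -0.66 (adjusted p = 0.545) for Lhx2 and -1.40 (adjusted p = 0.543) for Lmx1a; without control replicate 2 those of Lhx9, Lhx2 and Lmx1a were -0.35, 0.07 and 0.53. Cluster 6 held 1.9%, 13.9%, 5.3% and 1.9% of this class, so its share moved with the same library; its part in the result was not tested. Ldb1 stood at 116, 146, 118 and 116 CPM (log2 fold change -0.16 ± 0.22 SE, adjusted p = 0.817). None of the pathway genes was called in this class, and Lmo2 stood at 8.28, 16.4, 17.8 and 14.6 CPM.

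Whether the CKO effect differed between the Meis2 > Pax6 and the Pax6 > Meis2 cells was tested by an interaction term with the library as block, which called 15 of 13146 genes (0.114%) and none of the members. The largest member difference in relation to its error was that of Lhx9, 1.34 ± 0.25 (SE, log2, adjusted p = 0.0649 by edgeR). Lhx9 passed in each of 7 alternatives, with adjusted p from 8.53e-19 to 0.0413: without Gad cells, with cells thinned, without the low-count filter and with each library left out in turn. A lone library is there assumed to vary like the others, and over all genes the calls in these 7 fits numbered 19 to 422 against 15. Lhx2 differed by 1.22 ± 0.31 (SE, adjusted p = 0.280), Lhx1 by 1.12 ± 0.35 (SE, adjusted p = 0.484) and Ldb1 by 0.13 ± 0.17 (SE, adjusted p = 0.9996).

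**Figure D3:**
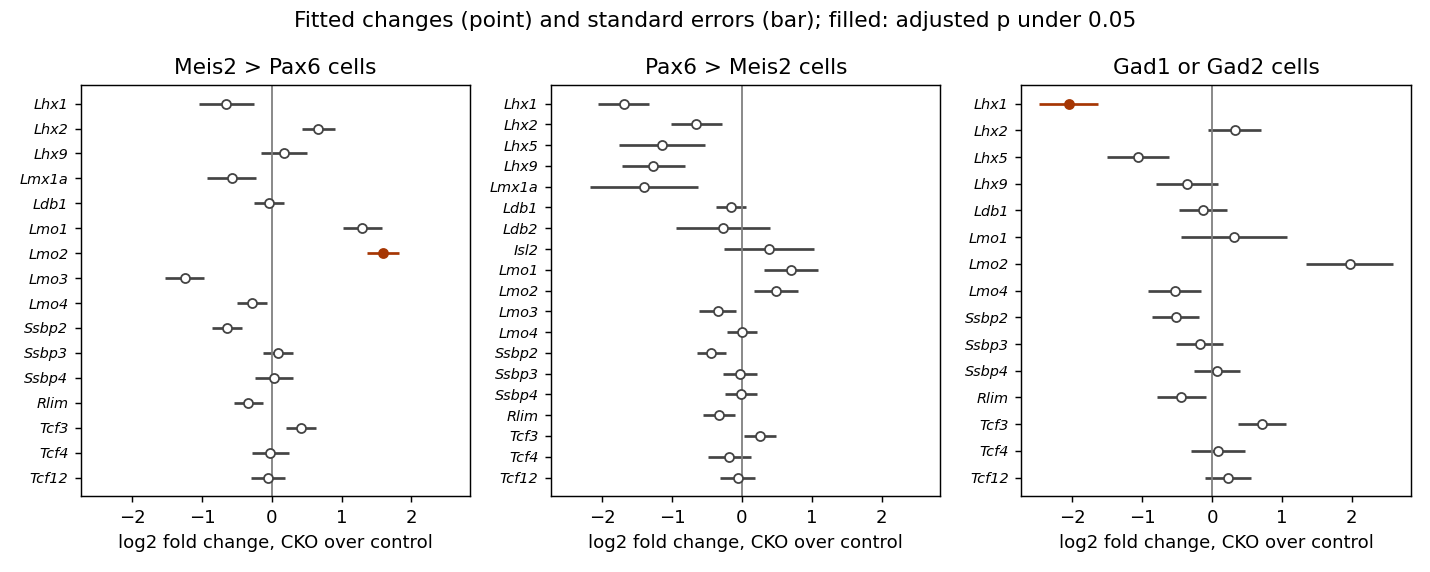
Log2 fold change, En1/2 CKO over control (horizontal axis), of the members and pathway genes that passed the low-count filter in each class, with bars of 1 standard error. Filled points have an adjusted p under 0.05: Lmo2 in Meis2 > Pax6 cells and Lhx1 in Gad cells.

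In Gad1 or Gad2 cells 27 of 6736 genes (0.401%) passed, with 24 up (0.356%) and 3 down (0.0445%), and Lhx1 was the 1 called of the 5 members tested. Lhx1, which Purkinje cells use with Lhx5 during their differentiation, was lower in CKO: 245 and 726 CPM in the controls and 110 and 122 CPM in the CKO libraries (log2 fold change -2.05 ± 0.42 SE, adjusted p = 0.0333 by edgeR). The controls differed from each other by more than the CKO libraries, and control replicate 2 was highest. The call was lost without control replicate 2 (log2 fold change -1.08, adjusted p = 0.823) and without CKO replicate 2 (-2.09, adjusted p = 0.125), with the replicate block (-1.89, adjusted p = 0.0702), without marked doublets (-1.98, adjusted p = 0.0816) and with cells thinned (-1.23, adjusted p = 0.347). It was also lost with at least 2 Gad UMIs asked for (-1.52, adjusted p = 0.984), in intact cells (-3.10, adjusted p = 0.138) and without cells that had an Atoh1 UMI (-0.83, adjusted p = 0.999).

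Lhx5 stood at 58.8, 156, 59.4 and 39.8 CPM in Gad cells, with overlapping groups (log2 fold change -1.06 ± 0.44 SE, adjusted p = 0.385). Lhx1os, the transcript next to Lhx1, stood at 31.0, 103, 9.14 and 17.4 CPM, lower in both CKO libraries (log2 fold change -2.25 ± 0.60 SE, adjusted p = 0.121); groups did not overlap for 42% of the genes tested. Lhx2 (74.3, 148, 164 and 107 CPM), Lhx9 (105, 275, 212 and 77.1 CPM) and Ldb1 (121, 201, 155 and 134 CPM) overlapped, with log2 fold changes of 0.32, -0.36 and -0.13. Lmx1a gave 0, 5, 7 and 1 UMIs. Lmo2 lay higher in both CKO libraries, at 9.29, 16.4, 68.5 and 29.8 CPM (log2 fold change 1.97 ± 0.62 SE, adjusted p = 0.203), and none of the pathway genes was called.

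The Gad class was a mixture. Cluster 15 (Nrxn3, Foxp2, Brinp3 and Gad2), with 188 cells of which 57.4% had a Gad UMI, held 43.1%, 49.4%, 40% and 40% of the Gad cells. Of 11 GABAergic markers fixed for this work, 9 were detected in the class (Ptf1a and Sox14 were at 0), and their sum, which includes Lhx1 and Lhx5, was 1038, 1962, 632 and 629 CPM. Dividing-cell markers, 6 of 6 detected, summed to 667, 330, 1474 and 2407 CPM in the same libraries and so lay higher in CKO; their part in the Lhx1 result was not tested.

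Within cluster 15, with all of its cells taken, Lhx1 was not called. It gave 87, 258, 50 and 54 UMIs, or 850, 1735, 648 and 754 TMM-scaled CPM. Both CKO libraries lay below both controls (log2 fold change -0.89 ± 0.41 SE, adjusted p = 0.999 by edgeR); edgeR called 0 of 2591 genes in this cluster (0%). Lhx5 overlapped, at 225, 330, 518 and 209 CPM (log2 fold change 0.38 ± 0.45 SE, adjusted p = 0.999). En2 was not lower in cluster 15 of the CKO libraries: it stood at 254 and 242 CPM in the controls and 415 and 237 CPM in CKO (log2 fold change 0.40 ± 0.40 SE, adjusted p = 0.999), whereas in clusters 5, 9 and 10 its log2 fold changes were -2.21, -2.04 and -2.78, with adjusted p of 0.031, 0.007 and 0.002. The difference between clusters was not tested. Whether Cre had acted in the cells of cluster 15 is not known from these counts, which bears on the Lhx1 values of the Gad class too.

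Shares of cells with a UMI were compared after each cell was thinned to 2000 UMIs. Every comparison of 2 against 2 libraries has 0.333 as its smallest two-sided p in the exact permutation test, so none of these shares could pass. In Meis2 > Pax6 cells Lhx9 was detected in 42.1%, 53.5%, 56.1% and 38.3% of cells, and Lhx2 in 28.4%, 24.3%, 34.7% and 30.6%. Lhx2 alone of these 2 separated the groups, at 26.3% ± 2.9 (SD, n = 2) in controls and 32.6% ± 2.8 (SD, n = 2) in CKO (exact permutation p = 0.333). In Pax6 > Meis2 cells Lhx9 was detected in 7.3%, 18.8%, 6.9% and 3.1% and Lhx2 in 4.6%, 8.7%, 3.7% and 3.1%, both lower in both CKO libraries. For Lhx9 the groups overlapped at 1000 UMIs (4.61%, 12.8%, 4.64% and 2.25%) and at 3000 UMIs (8.69%, 20.9%, 9.46% and 4.15%).

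Lhx1 was found in few Meis2 > Pax6 cells, 8.5%, 5.1%, 3.5% and 9.0%, and in 6.6%, 6.8%, 1.7% and 2.8% of Pax6 > Meis2 cells. In the latter the groups did not overlap (exact permutation p = 0.333, the smallest possible), and unthinned the shares were 10.8%, 8.5%, 6.5% and 9.5%, which overlap. In Gad cells Lhx1 was detected in 33.3%, 47.3%, 33.3% and 20.5% and Lhx5 in 15.6%, 20%, 20.5% and 10.3% of 45, 55, 39 and 39 cells. The shares of Lhx5 overlapped between the groups, and those of Lhx1 met at 33.3%. Unthinned, Lhx1 was detected in 36.2%, 40.2%, 32% and 36% of Gad cells, with both CKO libraries below both controls, as also at 3000 UMIs and without doublets; at 1000 UMIs and with at least 2 Gad UMIs the groups overlapped. Lmx1a was detected in 5.0%, 7.1%, 5.6% and 5.4% of Meis2 > Pax6 cells.

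The shares of Ldb1 differed between the unthinned and the thinned cells. Unthinned, it was detected in 34.0%, 32.8%, 50.6% and 37.4% of Meis2 > Pax6 cells and in 43.3%, 35.8%, 67.0% and 55.6% of Pax6 > Meis2 cells, higher in both CKO libraries in each. Thinned to 2000 UMIs, the shares were 23.9%, 27.2%, 25.6% and 25.7% in the former, which overlap, and 22.6%, 26.2%, 21.9% and 20.9% in the latter, where both CKO libraries lay below both controls. The order of the groups in Pax6 > Meis2 cells thus turned; the thinned rows also leave out cells under 2000 UMIs, and the parts of thinning and of leaving out cells were not separated. Lmx1b was seen in 0 of the 1322 thinned Meis2 > Pax6 cells of control replicate 2, which allows up to 0.227% of cells with a UMI at this depth and sets no limit on cells that express it, and Ldb2 in at most 0.605% of the class in any library.

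Members were next counted together within single Meis2 > Pax6 cells. Over the 4 libraries 420 thinned cells had both Lhx2 and Lhx9, against 332 expected from the product of the single shares in each library, a ratio of 1.27. Observed counts exceeded expected ones in each library (67 against 50.5, 209 against 172, 106 against 83.5 and 38 against 26.0). Cells with both made up 15.8%, 15.8%, 24.7% and 17.1% of the class, and cells with Lhx9 alone of the pair 26.2%, 37.7%, 31.4% and 21.2%.

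Lmx1a was found with Lhx9 or Lhx2 in fewer cells than the product of shares gives. Lhx9 and Lmx1a were found together in 38 cells against 77.2 expected (ratio 0.49), and below expectation in each library: 5 against 8.84, 28 against 50.3, 4 against 13.5 and 1 against 4.59. Lhx2 and Lmx1a gave 26 cells against 40.8 (ratio 0.64), again below in each library. Lhx1 and Lhx9 gave 47 against 67.0 (ratio 0.70), below in each library, while Lhx1 and Lhx2 gave 41 against 37.8 (ratio 1.08), below in 2 of the 4. These are counts of cells within libraries and carry no test.

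For Ldb1 and Lhx9 the observed number was close to the expected one: 317 Meis2 > Pax6 cells had both against 318 expected from the shares (ratio 1.00). Ldb1 with Lhx2 gave 185 cells against 172 (ratio 1.08) and with Lmx1a 26 against 39.8 (ratio 0.65). In Gad cells Lhx1 and Lhx5 were found together in 20 cells against 11.02 expected (ratio 1.81), above expectation in each library, but with at least 2 Gad UMIs asked for in 15 against 13.8 (ratio 1.08). Lhx2 and Lhx9 were found together in 17 against 7.64 (ratio 2.23), and Lhx1 and Lhx9 in 8 against 15.7 (ratio 0.51). Lhx2 and Lhx5 shared 0 of the 178 thinned Gad cells, against 5.33 expected.

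**Figure D4:**
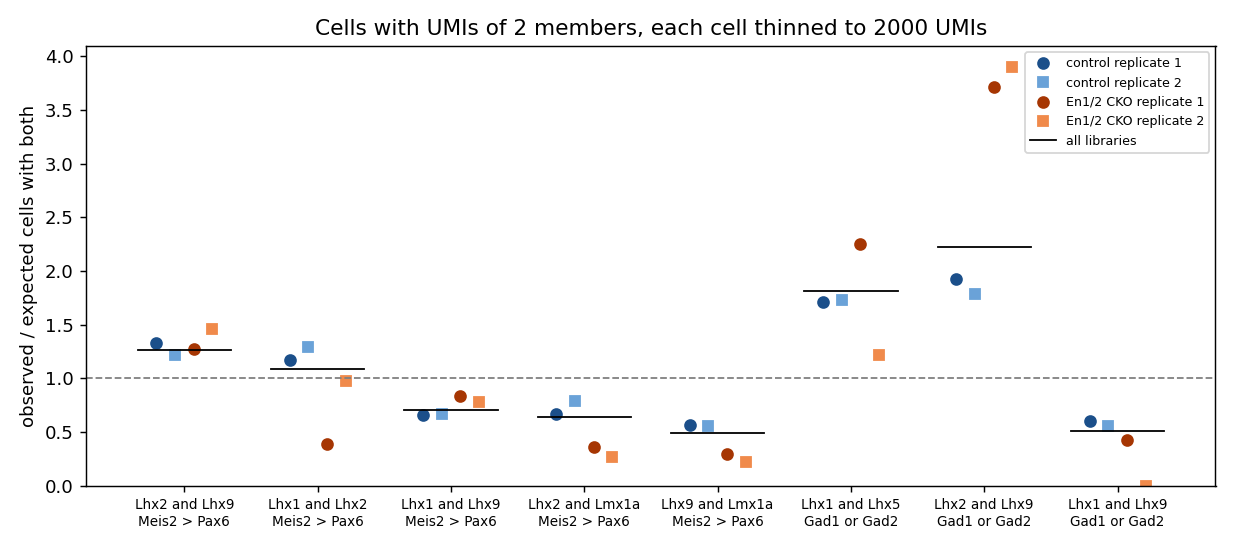
Number of thinned cells with UMIs of both genes divided by the number expected from the product of their shares (vertical axis, from 0; dashed line at 1), for 8 pairs, each with its class, 1 point for each library and a bar for all libraries. Pairs of Lhx2 with Lhx9 and of Lhx1 with Lhx5 lie above 1 in each library (the latter at 1.08 over all libraries with at least 2 Gad UMIs), and pairs of Lmx1a with Lhx9 or Lhx2 lie below 1.

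Sorted by code, 48.0%, 56.7%, 62.8% and 45.9% of thinned Meis2 > Pax6 cells had Lhx2 or Lhx9 and none of the other LIM homeodomain genes. Cells with none of the 6 genes made up 38.5%, 30.6%, 28.1% and 39.2%, a share that depends on depth. Cells with Lhx1 or Lhx5 only made up 3.8%, 3.0%, 1.6% and 4.5%, and cells with Lmx1a or Lmx1b only 2.6%, 4.4%, 4.0% and 3.6%. All of these shares overlapped between the groups.

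The cells with Lmx1a differed in other genes from cells with Lhx2 or Lhx9 only, in each of the 4 libraries. Genes were ranked by the smallest of the 4 library differences, a rule chosen after the values were seen and given with no test. The 151 Lmx1a cells (21, 94, 24 and 12) had more Tbr1, a T-box factor of excitatory neurons, at 95.2, 112, 146 and 292 CPM against 0, 13.4, 11.1 and 0 CPM in the Lhx2 or Lhx9 cells. They also had more RNA of the neurofilaments Nefl (mean 2466 against 476 CPM) and Nefm (1754 against 391 CPM), of the glutamate receptor subunit Gria3 (277 against 39.7 CPM) and of the prohormone convertase Pcsk2 (677 against 142 CPM). Lower were C1ql4, a secreted synaptic organiser (24.8 against 202 CPM), the homeodomain gene Zfhx3 (132 against 608 CPM) and Pax5 (113 against 523 CPM). Tbr1 is also among the excitatory nuclei markers fixed for this work, which did not move together. Of that list Slc17a6 (290.5 against 422.5 CPM), Irx3, Pou3f1, Nrp1 and Meis2 were lower in each library. Meis1 was higher in each, and Olig2 was mixed. Of the fixed granule markers, Pax6 and Neurod1 were higher in each library, Cntn2 was lower in each and the rest were mixed.

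The cells with an Lhx1 UMI (36, 67, 15 and 20) are a weaker grouping, since their share was not higher in Meis2 > Pax6 cells in every library. In control replicate 2 it was 5.1% there and 6.8% in Pax6 > Meis2 cells. In the other libraries it was 8.5%, 3.5% and 9.0% against 6.6%, 1.7% and 2.8%. A part of free RNA in this was not tested. The Lhx1 cells had more Nkd1, an inhibitor of Wnt signalling (438 against 91.5 CPM, mean over libraries). Hsd11b2, which inactivates glucocorticoids (313 against 60.75 CPM), Pvalb (268 against 85.6 CPM) and Sema7a (185 against 41.8 CPM) were also higher. The Lhx1 cells had less C1ql3 (103 against 642 CPM). Slc17a6, the vesicular glutamate transporter, was also lower (120 against 423 CPM), but came from the fixed excitatory nuclei markers, not the top ranks. Of that list Irx3, Nrp1 and Meis2 were lower in each library too. Pou3f1 was higher in each (105 against 54.9 CPM), and Meis1, Tbr1 and Olig2 were mixed. Lhx2 and Lhx9 define the reference cells. Of the fixed granule markers, Barhl1, Atoh1, Mfap4, Nhlh1 and Zic1 were higher in each library and the rest were not. Of the fixed GABAergic markers, Gad1 stood at 0, 59.7, 66.7 and 25 CPM and Slc32a1 at 0, 29.9, 100 and 0 CPM. In the reference cells both were at most 0.668 CPM. Foxp2 (13.9, 306, 200 and 150 against 41.9, 52.1, 33.3 and 53.9 CPM) and Gad2 were mixed. Of the Lhx1 cells, 35, 55, 10 and 19 had no Gad1 or Gad2 UMI. The part of the Gad cells in these differences was not tested. Hsd11b2 and Pvalb were also leading genes of cluster 7, whose cells had mostly more Pax6 than Meis2 UMIs (87.2%).

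Over the 17 clusters with at least 50 cells, the members fell into 3 patterns. Lhx9 was highest in cluster 5 at 721 CPM, then cluster 9 at 622 CPM, cluster 10 at 499 CPM and cluster 4 at 381 CPM, and was 104 CPM or lower in clusters 1 to 3, 6, 7 and 11 to 17. Lhx2 was highest in cluster 10 at 379 CPM, followed by clusters 5, 4, 9, 8 and 6 at 236, 194, 179, 165 and 124 CPM. The library spread within a cluster, such as 187 to 725 CPM for Lhx9 in cluster 10, covers the steps between neighbours in these orders. Cluster 8, led by haemoglobin genes, had 241 CPM of Lhx9 and 165 CPM of Lhx2, while 19 cells with at least 10% haemoglobin UMIs gave 1 and 0 UMIs of these genes.

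Lmx1a was highest in cluster 6 at 121 CPM, then cluster 8 at 47.8 CPM, and at most 17.3 CPM elsewhere. Lhx1 and Lhx5 were both highest in cluster 15, Lhx1 at 845 CPM against at most 71.2 CPM elsewhere (cluster 10) and Lhx5 at 239 CPM against at most 5.8 CPM (cluster 17). Ldb1 stood between 83.7 and 192 CPM in every cluster. Ldb2 peaked in cluster 16 (Sparc and Cyp26b1) at 11.2 CPM and in cluster 9 at 8.6 CPM, and Lmx1b reached 2.5 CPM in cluster 9.

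**Figure D5:**
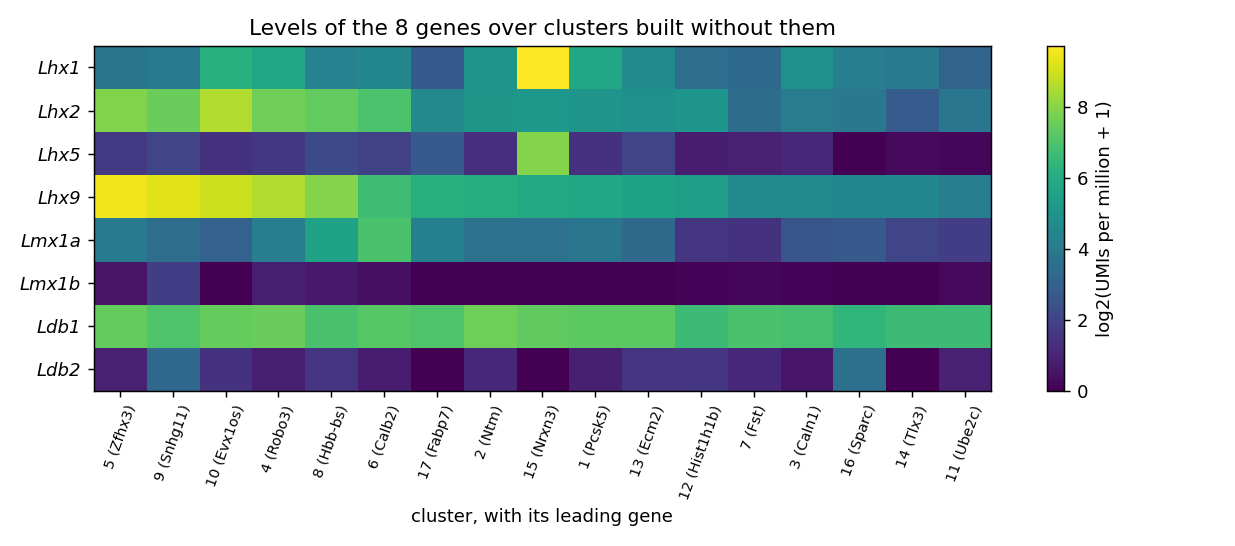
Log2 of CPM plus 1 (colour) of each of the 8 genes in the 17 clusters, named by number and leading gene and ordered by the level of Lhx9. Lhx2 follows Lhx9 across the left side, Lhx1 and Lhx5 meet in cluster 15, Lmx1a peaks in cluster 6, and Ldb1 is nearly even.

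Across those 17 clusters, which share libraries and differ in depth, Lhx2 and Lhx9 followed each other (Pearson r = 0.955 of log2 CPM plus a pseudocount of 10), as did Lhx1 and Lhx5 (r = 0.848). Lhx9 and Lmx1a did so less (r = 0.394), and Lhx1 and Lhx9 hardly (r = 0.104). The value for Lhx1 and Lhx5 rests mainly on cluster 15, as Lhx5 was at most 5.8 CPM in every other cluster. Outside the family, the 3 genes most like Lhx9 among 10182 ranked were Th, which encodes tyrosine hydroxylase (r = 0.980), Pax5 (0.975) and Evx2 (0.966). For Lhx2 they were Sst, which encodes somatostatin (0.962), Tmem163 (0.959) and Meis2 (0.953), the last of which is also a class gene. For Lmx1a they were Calb2 (0.973), Tbr1 (0.972) and Nefl (0.885).

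For Lhx1 the most like genes were Lhx1os (0.976), Pnoc (0.908) and Chrna5 (0.898). For Lhx5 they were Slc32a1, the vesicular GABA transporter, Gm27199 and Fgf3, each with r = 0.988. Gm27199 overlaps Lhx5 on the opposite strand (Lhx5 is annotated at chr5:120431699-120441223, + strand, GRCm38), and because the strand setting of the counting is not given in the sources used here, their reads cannot be told apart for certain. The same holds for Lhx2 (chr2:38339281-38369733, + strand) with Gm27197 and Gm13584, and for Ldb1 (chr19:46031570-46045214, - strand) with Pprc1. Lhx1 (chr11:84518284-84525535, - strand), Lhx9 (chr1:138825186-138848577, - strand) and Lmx1a (chr1:167689237-167848741, + strand) overlap no other annotated gene. For Ldb1, Rnf44 (0.899), Rnf123 (0.898) and Hipk2 (0.896) were closest.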

How the data were processed

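Cells of 2 control and 2 En1/2 CKO libraries were analysed. The deposited values are raw UMI counts per gene and barcode, made by the authors with Cell Ranger 5.0.0 per the file headers; mm10 is the build per the submitters' processing notes. A barcode was kept if it had 500 genes and 1000 UMIs or more, with no more than 10% of its UMIs from mt- genes (2911 and 3931 control and 2007 and 3697 CKO cells, from 14998150 to 33709450 UMIs per library; libraries shared 1 to 6 kept barcodes per pair). Doublets were marked by scanpy 1.11.5 (Scrublet) and removed only in an alternative.

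UMIs were summed per library and class and fitted with edgeR 4.0.16 (TMM, filterByExpr, quasi-likelihood test, two-sided, Benjamini-Hochberg over all genes) in R 4.3.3; the fits were tested on simulated data. DESeq2 1.42.0 was an alternative. Shares were thinned to 2000 UMIs. Leiden clusters (leidenalg 0.10.2, resolution 1) left out the members, En1 and En2, and also haemoglobin, ribosomal-protein, mitochondrial and sex-linked genes; clusters under 50 cells are not described. Named genes are all members, pathway genes that were called or had at least 10 CPM, and the 3 genes most like each member over clusters. The single-cluster fits, on all cells of a cluster, and the equal weighting of clusters, on Meis2 > Pax6 cells, were added after the data were seen. Members and lists were chosen with earlier results of these data known. Positions are from GENCODE M21 (GRCm38) and promoters from RefSeq, found for 6 of the 8 members. Limits for a share of 0 (3 counts) cover counting error only.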

Additional observations from a re-analysis of the deposited data

How the results depend on the processing

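The numbers of called genes moved more than the members' values. In Meis2 > Pax6 cells 25 genes were called; DESeq2 called 186, no low-count filter 559, the replicate block 58, intact cells 42, doublets removed 11, cells without an Atoh1 UMI 7, and leaving out 1 library 44 to 751. In Pax6 > Meis2 cells the count of 8 became 88 with DESeq2, 348 with no filter, 0 with the replicate block (1358 at an unadjusted p under 0.05), 25 thinned, 1 in intact cells, 5 without doublets, 3 without Atoh1 cells and 2 to 123 with 1 library left out. In Gad cells the count of 27 became 8 with DESeq2, 135 with no filter, 8 with the replicate block, 0 thinned (edgeR, 168 unadjusted), 0 in intact cells (341 unadjusted), 10 without doublets, 0 with at least 2 Gad UMIs (109 unadjusted), 1 without Atoh1 cells and 3 to 191 with 1 library left out. For the interaction 15 became 41 thinned, 84 with no filter and 28 to 422 with 1 library left out. Same-numbered libraries gave correlations of deviations of -0.21, -0.16 and -0.06 in the 3 classes, so the number was not taken as a pairing. Pairing control 1 with CKO 2 and control 2 with CKO 1, chosen after seeing the data, called 763 genes in Meis2 > Pax6 cells and 207 in Pax6 > Meis2 cells.

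Of 302 fold changes of members and Lmo2 under alternatives, 26 changed sign. Outside the runs that left out a library these were Lmx1a in Meis2 > Pax6 cells without Atoh1 cells (0.27) and with clusters weighted alike (0.087), and in Gad cells Lhx2 thinned (-0.28), Lhx5 without Atoh1 cells (0.11), Lhx9 in intact cells (0.064) and Ldb1 in intact cells (0.025) and with at least 2 Gad UMIs (0.50). Leaving out 1 library, the ranges that crossed 0 were, in Meis2 > Pax6 cells, -0.38 to 0.60 for Lhx9, -0.96 to 0.16 for Lmx1a and -0.16 to 0.12 for Ldb1; in Pax6 > Meis2 cells, -1.16 to 0.074 for Lhx2, -2.43 to 0.53 for Lmx1a, -0.27 to 0.030 for Ldb1 and -1.15 to 0.46 for Ldb2; in Gad cells, -0.10 to 0.87 for Lhx2, -1.25 to 0.47 for Lhx9 and -0.45 to 0.26 for Ldb1; and for the interaction, -0.17 to 0.65 for Lhx5, -0.33 to 1.57 for Lmx1a and -0.023 to 0.28 for Ldb1. The cause was not tested. Of 136 detection differences 11 moved by more than the spread between replicates, and of 32 co-detection ratios 3, among them Lhx1 with Lhx5 in Gad cells with at least 2 Gad UMIs (1.08 against 1.81). At Leiden resolution 0.5 the highest-cluster level of Lmx1a was 73.8 CPM. The single-cluster fits were not repeated under other settings. With 2 libraries against 2, no difference in shares could pass a test, and the 39 to 55 thinned Gad cells per library add counting error.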
